A study of Mus musculus with 7 samples.

Results

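When neural crest-derived cells of the mouse were taken from the animal and grown in culture, some transcripts shifted in the same direction in every culture, whatever the tissue or the culture method. That shared shift is described here as the set of genes whose levels in all 4 cultured tdTomato-positive libraries lay on one side of both primary (freshly sorted) tdTomato-positive libraries. These 6 libraries are all but 1 of the 7 libraries of the series, and the remaining library, of tdTomato-negative cultured cells, was set beside the result without being used to find it. Every animal was a Wnt1-Cre;tdTomato mouse, the offspring of Wnt1-Cre and R26R-tdT reporter parents. Cre under the Wnt1 promoter turns on tdTomato in the neural crest and its descendants, so a positive cell is one with a crest history and not of a single type. Each library came from about 50000 cells pooled equally from 3 mice aged 1 month, 2 female and 1 male.

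The primary libraries were positive cells of posterior subcutaneous fat pads (adipose primary) and of the smooth muscle and myenteric plexus of the small bowel (bowel primary). Adipose neurospheres and bowel M2 neurospheres came from tissue cells cultured as mixed spheroids for 10 days, sorted, and grown for 10 more days as purified positive cells. Bowel M1 neurospheres came from cells sorted first and cultured for 10 days. The tdT-positive spheroid cells, and the tdT-negative ones, were sorted from mixed bowel spheroids after 10 days. All cultures were fed a medium for neural proliferation that contained heparin and 2 growth factors, basic FGF (fibroblast growth factor) and EGF (epidermal growth factor). There was 1 library for each condition, and the labels do not say whether the cultures shared animals or dishes. The spread among cultured libraries therefore contains tissue, method and time together, and the p-values given measure only the spread between these 6 libraries.

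Neural crest cells leave the dorsal neural tube of the embryo and form, among others, the neurons and glia of the gut wall and the Schwann cells of peripheral nerves. The enteric nervous system keeps glia and progenitors that can divide and make neurons and glia again when placed in culture. Such cells grow as floating clusters called neurospheres when given fibroblast and epidermal growth factors, which signal through receptor tyrosine kinases and the MAP kinase cascade.

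Expression is given in CPM, the reads of a gene scaled to the total reads of its library. Libraries held 51885106 to 65301500 reads, and 12401 to 14690 genes reached 1 CPM in a library. Of 27179 gene identifiers, 14794 reached 1 CPM in at least 2 of the 6 libraries and were examined. The separation of a gene is the lowest log2(CPM + 0.5) on one side minus the highest on the other. A separation above 0 means no overlap between the groups, and a gene was put in the culture core where it was at least 1, a 2-fold gap between the nearest libraries. Values of cultured libraries are always printed in the order adipose neurospheres, bowel M1 neurospheres, tdT-positive spheroid cells, bowel M2 neurospheres, and those of primary libraries in the order adipose, bowel.

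All 6 libraries carried the crest transcription factor Sox10, with 632, 786, 899.6 and 661 CPM in culture against 377 and 98.05 CPM, while the tdT-negative library had 5.23 CPM. Erbb3, the neuregulin receptor of crest and glial cells, had 235, 502, 625 and 457 CPM in culture against 127 and 24.9 CPM, with 3.76 CPM in the tdT-negative library, and S100b, a calcium-binding protein of glia, had 26.8, 244, 276 and 311 CPM in culture against 128 and 95.7 CPM. The primary libraries also carried markers of cells that do not come from the crest. Pancreatic acinar markers summed to 91790 CPM in bowel primary cells and 52.6 CPM in adipose primary cells, against 56.2 to 247.8 CPM in culture, and blood and vessel markers are given with the genes that were lower. With acinar genes left out of the library totals, the core counts given next were 688 higher and 1205 lower.

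The culture core held 762 genes that were higher and 1141 that were lower in every cultured library, 5.15% and 7.71% of the genes examined. Without the 2-fold gap, 4351 genes (29.4%) were higher and 2209 (14.9%) lower with no overlap, and at a separation of at least 2 there were 89 (0.602%) and 590 (3.99%). limma, which tests the mean difference between the groups for all genes at once, called 1533 genes higher (10.4%) and 1174 lower (7.94%) at an adjusted p of at most 0.05, and 5100 genes had an unadjusted p of at most 0.05. It called 736 of the 762 and 1061 of the 1141 core genes, a count that rests on the same contrast as the separation. For a single gene, an exact two-sided rank-sum test of 4 against 2 libraries has 15 splits and cannot go below 0.133. The median difference of all genes, cultured minus primary, was 0.24 log2 units in plain CPM and -0.06 after TMM scaling (factors that balance the bulk of genes between libraries). Under TMM the core had 446 higher (3.01%) and 1349 lower (9.12%) genes, and no overlap counted 2873 (19.4%) and 3096 (20.9%). Of the lower core genes, 511 reached the expression minimum through the primary libraries alone and had to be lower, and 55 higher core genes reached it through the cultured libraries alone. All levels and differences below are from plain CPM unless TMM is named, and a list's median is to be read against 0.24.

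The genes with the widest gaps upward included secreted trophic factors and a neurotrophin receptor. Artn encodes artemin and Gdnf encodes glial cell line-derived neurotrophic factor, ligands that signal through the receptor tyrosine kinase RET. Artn (Entrez 11876; chromosome 4, 117925908 to 117930795, GRCm38) had 128, 66.6, 376 and 247 CPM in culture against 0.344 and 3.40 CPM, with a separation of 4.11 log2 units. Gdnf had 67.4, 14.3, 44.5 and 34.4 CPM in culture against 0.0937 and 1.06 CPM. The highest primary value of each came from the bowel and lay well under the lowest culture. Their shared receptor did not separate, as Ret had 1.30, 374, 22.3 and 274 CPM in culture against 1.51 and 55.7 CPM, low in both adipose libraries.

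Ngfr, the p75 neurotrophin receptor that marks migrating crest cells and glia, had 490.3, 114, 373 and 365 CPM in culture against 13.7 and 5.88 CPM. Nes encodes nestin, an intermediate filament of neural progenitors, and had 674, 270.4, 496 and 254 CPM in culture against 11.8 and 24.1 CPM. For both genes M1 or M2 neurospheres were the lowest culture and adipose neurospheres the highest. In the tdT-negative library both genes were at or below primary levels, with 2.00 CPM and 14.7 CPM.

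Cell adhesion and guidance genes made up another share of the 15 widest upward gaps. Tenm3, a teneurin of neural wiring, had 329, 155, 477 and 278 CPM in culture against 16.99 and 10.97 CPM. Nav3, a neuron navigator protein that binds microtubules, had 58.7, 43.00, 117 and 45.5 CPM in culture against 2.97 and 3.24 CPM. Pcdhgc3, a clustered protocadherin, had 246, 344, 630.0 and 363 CPM in culture against 18.2 and 18.6 CPM, and its neighbour Pcdhgc5 had 10.6, 10.9, 50.6 and 11.3 CPM in culture against 0.719 and 0.815 CPM. The last 2 genes share constant exons, so reads can be divided between them in ways the counts do not show.

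Lrtm1, a leucine-rich repeat membrane protein (chromosome 14, 29018208 to 29033642), had the widest gap among genes with at least 10 CPM in every cultured library. Its levels were 116, 19.2, 26.8 and 17.6 CPM in culture against 0.515 and 0 CPM, and the tdT-negative library had 0.0619 CPM. Greb1, known as an oestrogen-responsive gene, had 61.4, 34.1, 96.6 and 48.99 CPM in culture against 1.51 and 2.20 CPM, with 0.464 CPM in tdT-negative cells. Lars2, the mitochondrial leucyl-tRNA synthetase, was the most abundant of the 15, with 2333, 2534, 2837 and 3616 CPM in culture against 104 and 189.7 CPM. The others were Glis3, a zinc finger factor, with 11.1, 13.1, 86.01 and 36.9 CPM in culture, the inositol phosphatase Inppl1 with 74.3, 64.9, 75.6 and 54.3 CPM, the surface protein Cd109 with 225, 88.1, 361 and 243 CPM and Niban2 with 614, 410.3, 645 and 534 CPM. No primary library exceeded 54.6 CPM for any of these last 4 genes.

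**Figure D1:**
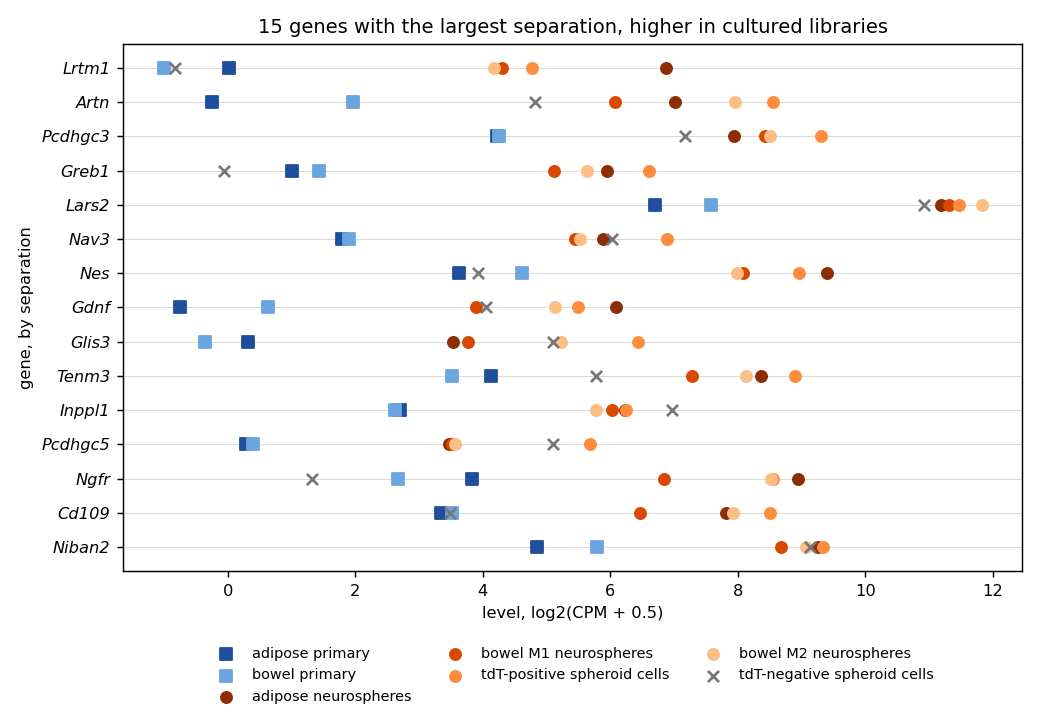
Levels of the 15 genes with the largest upward separation, as log2(CPM + 0.5) on the horizontal axis, 1 row per gene, with squares for the 2 primary libraries, circles for the 4 cultured tdT-positive libraries and a cross for the tdT-negative library. Every circle of a row lies to the right of both squares, while the crosses of Lrtm1, Greb1, Nes, Ngfr and Cd109 lie with the squares.

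Genes of cell division formed the list with the largest share of members above both primary libraries. Of 39 mitosis and cell cycle genes, 35 were higher with no overlap (34 under TMM), beside 29.4% of all genes, and 0 were lower. By limma 16 rose and 0 fell, and the list's median difference was 1.53 log2 units. Mki67, the antigen Ki-67 of cycling cells, had 43.1, 206, 73.9 and 115 CPM in culture against 24.4 and 18.2 CPM. Top2a, the topoisomerase that untangles replicated chromosomes, had 80.2, 326, 117 and 250.2 CPM in culture against 51.00 and 23.9 CPM. In both genes the M1 neurospheres were highest and the adipose neurospheres lay nearest to the primary cells.

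Core members of the list were Ccna2, Cdk1, Plk1, Kif11, Birc5, Ccnd1, Foxm1, E2f1 and Hmmr. Ccnd1 encodes cyclin D1, which links growth factor signals to entry into the cycle, and had the widest gap of the list, with 396, 623, 355 and 677 CPM in culture against 59.7 and 96.5 CPM. Its relatives Ccnd2 and Ccnd3 overlapped, with 214, 166, 134 and 110.3 CPM in culture against 87.95 and 333 CPM for Ccnd2 and 86.4, 366, 157 and 267 CPM in culture against 167 and 222 CPM for Ccnd3. E2f1, a transcription factor of the G1 to S step, had 78.3, 99.1, 94.1 and 56.9 CPM in culture against 15.9 and 17.1 CPM. Cdk1, the kinase that starts mitosis, had 54.1, 130.5, 54.2 and 105 CPM in culture against 22.6 and 19.5 CPM, a mean difference of 1.90 ± 0.43 log2 units (SE), limma adjusted p = 0.0288. That p-value comes from the contrast that placed Cdk1 in the core, so it is no separate support. The other 2 members with overlap were Cenpf and Spc24, which act at the kinetochore.

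Mitotic genes are known to share promoter elements, the CCAAT box and the cell cycle homology region, and windows of core members are shown so that these elements can be seen. Of the 6 core members of the list with an entry in the promoter table, 4 held a motif in this window and are printed, and E2f1 and Birc5 held neither. Each is the 120 bases just before the RefSeq start (GRCm38.p6), written along the gene's strand, with CCAAT and TTTGAA in capitals on either strand (ATTGG and TTCAAA on the other). They are Cdk1 at chr10:69352913-69353032 on the minus strand, Kif11 at chr19:37376262-37376381 on the plus strand, Hmmr at chr11:40733438-40733557 on the minus strand and Plk1 at chr7:122159315-122159434 on the plus strand.
Cdk1: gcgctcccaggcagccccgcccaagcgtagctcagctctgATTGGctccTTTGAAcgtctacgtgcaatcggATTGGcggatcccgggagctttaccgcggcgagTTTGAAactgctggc
Kif11: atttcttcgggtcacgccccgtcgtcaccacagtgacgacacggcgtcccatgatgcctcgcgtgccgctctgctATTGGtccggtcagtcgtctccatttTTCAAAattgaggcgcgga
Hmmr: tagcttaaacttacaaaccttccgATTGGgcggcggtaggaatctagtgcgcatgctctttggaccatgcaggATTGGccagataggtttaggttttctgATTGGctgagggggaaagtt
Plk1: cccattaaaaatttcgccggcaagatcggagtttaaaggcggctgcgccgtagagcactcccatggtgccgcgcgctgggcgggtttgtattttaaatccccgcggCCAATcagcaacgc
Cdk1 held 2 of each motif, Kif11 1 of each, Hmmr 3 CCAAT and Plk1 1 CCAAT. In the 300 bases from 250 before to 50 after the start, 24 of 33 promoters of the mitosis list held CCAAT (72.7%) and 22 held TTTGAA (66.7%). Among 14550 promoters of the genes examined these shares were 37.4% and 12.2%, and among the 775 promoters of core genes that were higher they were 35.5% and 11.4%. A matching run of letters is a description and does not show binding.

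Among DNA replication genes, 22 of 33 members were higher without overlap (17 under TMM, where 1 was lower), with a median of 1.12, and 5 rose by limma. The counts of this paragraph stand beside 29.4% higher and 14.9% lower among all genes (19.4% and 20.9% under TMM), of which 10.4% rose. Pole, the catalytic subunit of DNA polymerase epsilon, had 12.3, 48.1, 22.8 and 19.7 CPM in culture against 2.52 and 1.68 CPM. Of 15 DNA repair genes 11 were higher without overlap (7 under TMM) and 4 rose, among them the exonuclease gene Exo1 with 11.01, 28.8, 8.88 and 14.99 CPM in culture. Of 16 chromatin genes of dividing cells 11 were higher (8 under TMM) and 4 rose. Hmga2, an architectural chromatin protein of embryonic cells, had 0 reads in both primary libraries, which allows up to 0.0469 and 0.0520 CPM, and 120.2, 8.31, 27.8 and 4.44 CPM in culture. Hmga2 thus reached the expression minimum through the cultured libraries alone. Its relative Hmga1 had 232, 39.4, 120.4 and 69.3 CPM in culture against 16.8 and 13.7 CPM. Inhibitors of the cycle showed no shared direction, with 2 of 16 members higher and 2 lower without overlap (1 and 4 under TMM). Of the 2 higher members, Cdkn2a reached the minimum through the cultured libraries alone. Cdkn1a, which encodes the inhibitor p21, had 444, 256, 245 and 162 CPM in culture against 604 and 147 CPM.

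**Figure D2:**
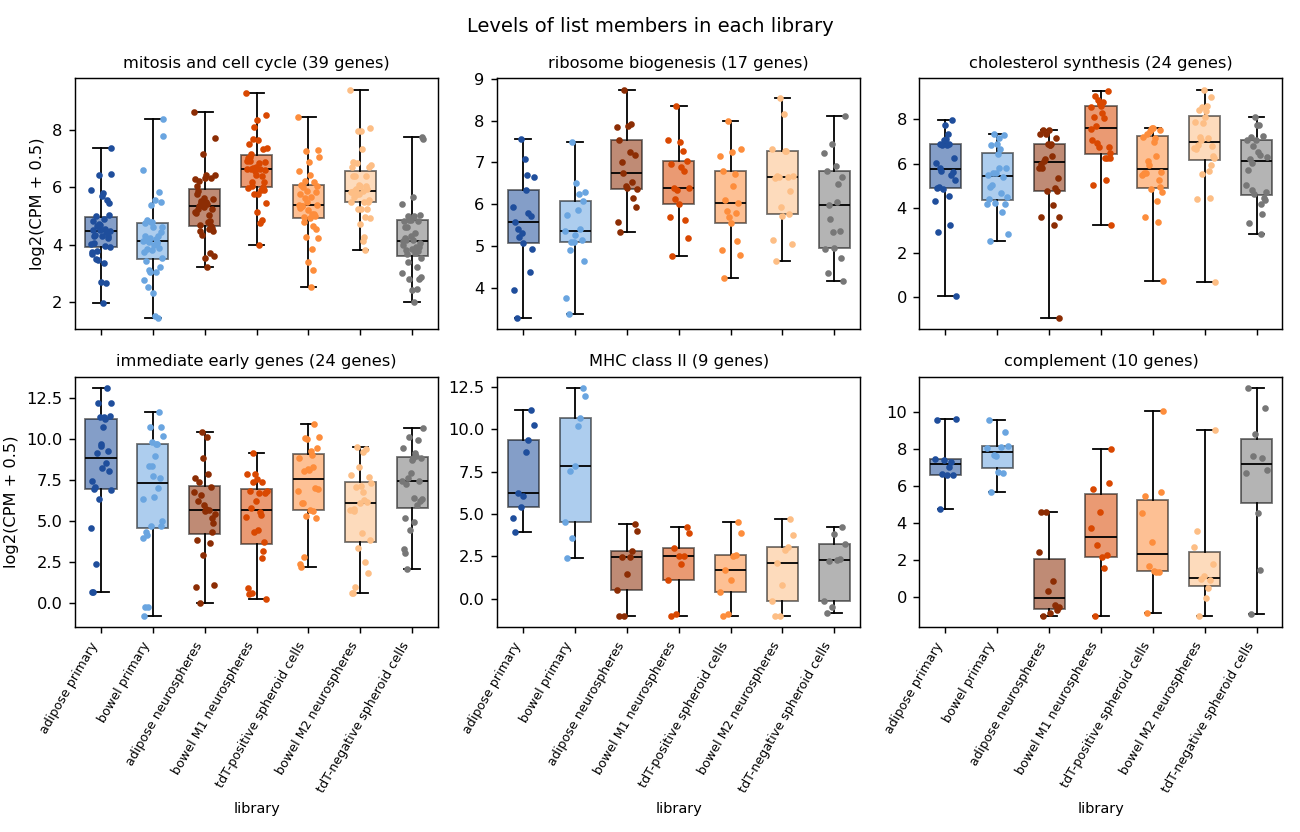
Levels of the members of 6 gene lists in each of the 7 libraries, as log2(CPM + 0.5) on the vertical axis (1 point per gene, box from the first to the third quartile with the median as a line, whiskers over the full range). The mitosis box of bowel M1 neurospheres is the highest of its panel, the tdT-negative box lies with the primary ones, and the MHC class II boxes of all cultured libraries lie far below the primary ones.

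Genes of ribosome production were also above both primary libraries in most cases in plain CPM, beside 29.4% of all genes (19.4% under TMM). Of 17 ribosome biogenesis genes 13 were higher without overlap (9 under TMM) and 6 rose, with a median of 0.89. Mybbp1a, a nucleolar protein, had 228, 186, 143 and 159.8 CPM in culture against 60.9 and 40.7 CPM, and Ncl, which encodes nucleolin, had 426, 326, 253 and 374 CPM in culture against 188 and 180.2 CPM. Of 20 cytosolic ribosomal protein genes 17 were higher without overlap in plain CPM and 4 under TMM, and 2 rose by limma. The count thus depended on the scaling, and under TMM it was near the share of all genes. Their median was 0.75. Of 18 nuclear genes of oxidative phosphorylation 0 separated in either direction (2 were lower under TMM), and their median was -0.16.

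Genes for the synthesis of building blocks separated in smaller shares. Of 24 cholesterol synthesis genes 9 were higher without overlap (8 under TMM) and 3 rose (median 0.95), shares near those of all genes, of which 29.4% were higher without overlap (19.4% under TMM) and 10.4% rose. Dhcr7, the last reductase of the pathway, had 55.6, 187, 44.9 and 104 CPM in culture against 19.9 and 17.6 CPM, with the highest levels in M1 and M2 neurospheres. Of 11 fatty acid synthesis genes 6 were higher (3 under TMM) and 1 rose (median 1.10), with Fasn, fatty acid synthase, at 64.7, 511, 239 and 537 CPM in culture against 31.1 and 11.2 CPM. Of 18 genes of serine, one-carbon and amino acid metabolism 7 were higher (4 under TMM) and 2 rose (median 1.02). Mthfd1l, a mitochondrial enzyme of the folate cycle, had 195, 118, 83.6 and 102 CPM in culture against 11.3 and 6.19 CPM, and Slc7a5, a transporter of large neutral amino acids, had 96.9, 239, 95.5 and 147 CPM in culture against 13.5 and 12.4 CPM. Of 23 glycolysis and hypoxia genes 3 were higher and 1 lower without overlap (1 and 3 under TMM), with a median of -0.04.

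Feedback genes of FGF and EGF signalling are transcribed when the MAP kinase cascade is active, and many of their products restrain it. Of 14 such genes 6 were higher without overlap (5 under TMM) and 2 rose, beside 29.4% (19.4% under TMM) and 10.4% of all genes, and their median of 0.20 was below the 0.24 of all genes. Etv4, an ETS factor, had 10.8, 19.2, 3.70 and 14.3 CPM in culture against 0.234 and 0.243 CPM, so it reached the expression minimum through the cultured libraries alone. Dusp4, a nuclear MAP kinase phosphatase, had 75.8, 60.6, 24.9 and 28.2 CPM in culture against 10.1 and 4.16 CPM. Spry4, a Sprouty inhibitor, had 16.9, 164, 17.3 and 80.2 CPM in culture against 12.5 and 13.7 CPM, so that adipose neurospheres and tdT-positive spheroid cells lay only just above the primary cells. Clock genes were mixed, with 5 of 14 higher and 1 lower without overlap (3 rose, 0 fell), and Clock itself at 39.8, 63.1, 62.8 and 86.8 CPM in culture against 19.6 and 17.8 CPM sat at the edge of the core with a separation of 1.00.

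Crest and progenitor genes included 2 of the 15 widest upward gaps, Ngfr and Nes. Of 21 examined, 10 were higher without overlap (10 under TMM), 9 rose and 1, Twist1, fell, with a median of 1.94. Of all genes 29.4% were higher without overlap (19.4% under TMM) and 10.4% rose. Of the 21, 1 reached the expression minimum through the cultured libraries alone. The core members were Sox2, Sox9, Foxd3, Snai2, Ngfr and Nes. Sox2, a factor of neural progenitors and glia, had 131, 100.5, 115 and 82.2 CPM in culture against 13.9 and 7.49 CPM, a mean difference of 3.31 ± 0.33 log2 units (SE), limma adjusted p = 0.00439. Its p-value rests on the contrast by which it was picked and adds no separate support. Foxd3, an early crest specifier, had 81.3, 77.9, 121 and 90.1 CPM in culture against 37.2 and 15.8 CPM. Snai2, which drives the epithelial to mesenchymal transition of crest cells, had 116, 31.5, 52.6 and 39.5 CPM in culture against 12.04 and 10.5 CPM. Twist1, a factor of mesenchyme, went the other way with 0.146, 1.04, 0.279 and 0.0459 CPM in culture against 3.20 and 6.90 CPM. Zic1 and Zic2 had 0 reads in every cultured library.

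Glial identity genes had no single direction. Of 15 enteric and peripheral glia genes 3 were higher and 3 lower without overlap, beside 29.4% and 14.9% of all genes, with a median of -0.18. The list's median log2 ratio to the primary library of the same tissue was -2.24 in adipose neurospheres. It was 0.632, 0.986 and 0.525 in M1 neurospheres, tdT-positive spheroid cells and M2 neurospheres. Scn7a, a sodium channel of glia, had 5.54, 19.4, 57.04 and 35.6 CPM in culture against 882 and 225 CPM, the lowest in adipose neurospheres. Among myelin genes of Schwann cells 0 of 14 were higher and 4 lower without overlap (5 under TMM), 3 fell, and the median was -2.20. Beside this, 14.9% of all genes were lower without overlap (20.9% under TMM). The median ratio to the primary library of the same tissue was -4.27 in adipose neurospheres. In the bowel cultures, in the printed order, it was only -0.58, -0.444 and -0.375. Mal, a protein of myelin membranes, had 1.87, 3.01, 1.38 and 2.91 CPM in culture against 415 and 51.1 CPM.

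Of 16 oligodendrocyte lineage genes 3 were higher and 2 lower without overlap, and 2 rose and 1 fell. Of all genes 29.4% were higher and 14.9% lower without overlap, and 10.4% rose and 7.94% fell. These shares also stand beside the neuronal counts below. Olig1, a factor of oligodendrocyte precursors, had 8.16, 56.6, 62.7 and 132 CPM in culture against 0.250 and 0.104 CPM, and 0.170 CPM in tdT-negative cells. Mog, a protein of mature myelin sheaths, had 0, 0.231, 0.186 and 0.0306 CPM in culture against 27.7 and 2.77 CPM. Mog, the member that fell, reached the minimum through the primary libraries alone and had to be lower. Of the list, 3 members, Olig1 among them, reached it through the cultured libraries alone. Few neuronal genes separated. Of 16 pan-neuronal genes 1 was higher and 0 lower without overlap, and of 15 enteric neuron subtype genes 0 were higher and 2 lower, both of which reached the minimum through the primary libraries alone.

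Among single genes of other lists, Grb10, an imprinted adaptor that dampens insulin-like signalling, had 180.3, 355, 446 and 498 CPM in culture against 47.8 and 38.3 CPM, while imprinted Igf2 had 0.0649, 1.52, 0.139 and 0.0919 CPM in culture against 5.42 and 7.42 CPM. Of 9 imprinted growth genes these were the 2 that separated (1 higher and 2 lower under TMM). Mmp17, a membrane-type matrix protease, had 464, 353, 1634 and 561 CPM in culture against 117 and 157 CPM, 1 of 2 higher members among 16 matrix proteases and inhibitors with 1 lower. Agrn, the basement membrane proteoglycan agrin, had 275, 461, 1112 and 438 CPM in culture against 72.3 and 43.8 CPM, 1 of 3 higher members among 13 basement membrane genes (1 higher and 1 lower under TMM). The shares among all genes were 29.4% higher and 14.9% lower without overlap (19.4% and 20.9% under TMM).

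**Figure D3:**
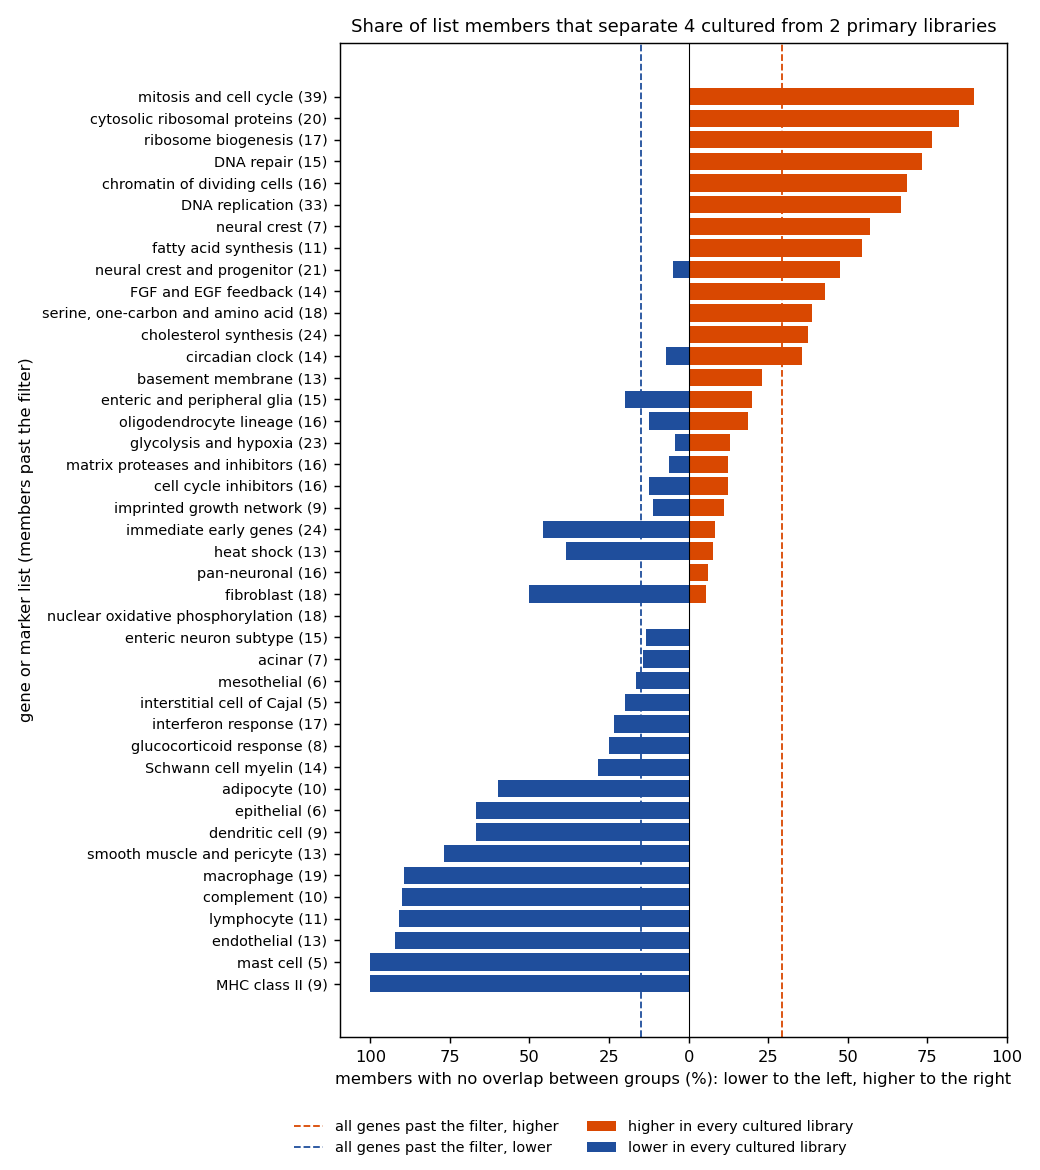
Share of the members of each gene or marker list with no overlap between the groups, in percent of the members past the expression minimum, to the right for members higher in all 4 cultured libraries and to the left for members lower, for lists with at least 5 such members; members that reached the minimum through the primary libraries alone had to fall on the left. Dashed lines give the share among all genes examined, 29.4% higher and 14.9% lower.

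Downward, the widest gaps belonged mostly to genes known from immune, blood and vessel cells. Retnla, a resistin-like protein secreted by macrophages and fat tissue, had 0.276, 0.0386, 0.186 and 0.138 CPM in culture against 281 and 358 CPM, the widest gap of all genes named. Cd74, the invariant chain that escorts MHC class II molecules, had 20.4, 18.4, 22.6 and 25.3 CPM in culture against 2240 and 5501 CPM, and H2-Ab1, a class II chain, had 15.7, 14.4, 13.96 and 13.2 CPM in culture against 1200 and 3989 CPM. Ighm, the immunoglobulin heavy constant mu gene of B cells, had 0.455, 0.501, 0.309 and 0.689 CPM in culture against 332 and 135 CPM. Haemoglobin genes were near 0 in culture, with Hba-a1 at 67.6 and 141 CPM in the primary libraries and at most 0.0325 CPM in a cultured one. Near-identical copies such as Hba-a1 and Hba-a2 can exchange reads.

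Not every gene with a wide downward gap is a blood cell gene. Sfrp5, a secreted inhibitor of Wnt signalling, had 0, 0.0386, 0.124 and 0.0306 CPM in culture against 614 and 124 CPM. Sostdc1, a secreted antagonist of BMP and Wnt signals, had 0.422, 1.10, 1.64 and 0.383 CPM in culture against 464 and 198 CPM. The remaining genes of the 15 were Fcna, a ficolin of macrophages, the endothelial lipase anchor Gpihbp1, Fgd2, the lectin Cd209f, H2-Aa, Hba-a2, Hbb-b1 and Hbb-bs. In these bulk libraries, fewer cells of a type and less RNA per cell cannot be told apart.

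**Figure D4:**
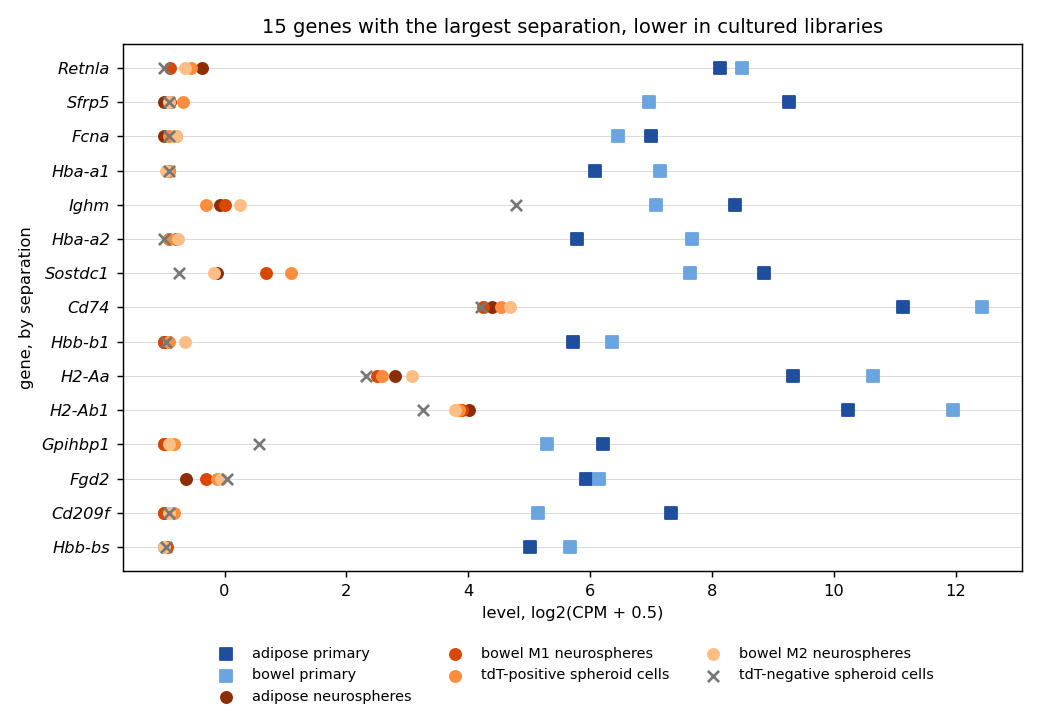
Levels of the 15 genes with the largest downward separation, drawn as in the plot of upward genes, with log2(CPM + 0.5) on the horizontal axis. All circles lie to the left of both squares, and the cross of Ighm, at 27.1 CPM in the tdT-negative library, stands between them.

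Marker lists give the extent. Of 19 macrophage markers 17 were lower without overlap (19 under TMM), 0 were higher, 14 fell by limma, and their summed level was 3001 to 6193 CPM in primary libraries and 72.3 to 1490 CPM in culture. The highest sum was that of M1 neurospheres, where Lyz2, lysozyme of myeloid cells, had 1213 CPM against 12.8, 23.5 and 17.1 CPM in the other cultures, and no macrophage marker was at 0 in all cultures. All 9 MHC class II genes were lower and fell, with sums of 4719 to 12690 CPM against 52.5 to 58.7 CPM, and H2-Oa had 0 reads in every cultured library. Of these 2 lists, 3 macrophage and 2 class II genes reached the expression minimum through the primary libraries alone and had to be lower. The same held for 8 of 11 lymphocyte, 4 of 9 dendritic cell, 2 of 3 neutrophil and 1 of 5 mast cell markers that reached it, so levels are given for these lists in place of counts. Lymphocyte markers summed to 45.7 to 1327 CPM in primary libraries and 1.22 to 5.30 CPM in culture, with Nkg7 at 0 in culture. Mast cell markers summed to 47.7 to 52.1 against 1.13 to 13.8 CPM and neutrophil markers to 15.8 to 167.5 against 0.162 to 2.06 CPM. The sums of dendritic cell markers overlapped, with 124 to 1980 against 112 to 209.8 CPM. Most of each cultured sum came from 1 marker, Fscn1. It had 103, 130, 203 and 206 CPM in culture against 291 and 8.20 CPM.

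Endothelial markers were lower in 12 of 13 cases (13 under TMM) and 11 fell, with 4 that reached the minimum through the primary libraries alone, and sums of 476.3 to 498.0 CPM against 11.9 to 71.8 CPM. Pecam1, an adhesion molecule of vessel walls, had 0.584, 0.463, 1.64 and 2.05 CPM in culture against 49.98 and 53.95 CPM. Smooth muscle and pericyte markers were lower in 10 of 13 cases (11 under TMM) and 3 fell, with 2 through the primary libraries alone and sums of 406 to 26760 CPM against 27.1 to 112.8 CPM. Myh11, the smooth muscle myosin, had 0.536, 6.01, 0.248 and 0.367 CPM in culture against 40.95 and 2901 CPM. Fibroblast markers were lower in 9 of 18 cases, 1 of them through the primary libraries alone, and higher in 1 (0 under TMM). Of these markers 5 fell, and their sums overlapped, with 7427 to 17050 CPM against 2981 to 10340 CPM. Adipocyte markers summed to 278 to 621 CPM against 74.5 to 162 CPM, with Adipoq, Cidec and Retn at 0 reads in every cultured library, and epithelial markers to 65.05 to 146 CPM against 0.503 to 23.3 CPM, with Cldn3 at 0. All 4 erythroid and both skeletal muscle markers that reached the minimum did so through the primary libraries alone, with sums of 177 to 446 against 0.521 to 0.906 CPM and of 4.59 to 128.8 against 0.195 to 2.51 CPM. Mesothelial markers were lower in 1 of 6 cases, interstitial cell of Cajal markers in 1 of 5 and acinar markers in 1 of 7 (3 under TMM). Of 4 melanocyte markers 1, Pmel, was higher and 1 lower. The lower acinar gene, Ctrc, and the lower melanocyte gene, Dct, reached the minimum through the primary libraries alone and had to be lower. The counts stand beside 14.9% for all genes, and the part of such cells in the other genes that were lower was not tested.

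Complement genes, made by macrophages, fibroblasts and some glia, were lower in 9 of 10 cases (1 through the primary libraries alone) and 8 fell, with a median of -4.96. Of all genes 14.9% were lower without overlap and 7.94% fell. Serping1, the C1 inhibitor, had 24.1, 57.6, 44.1 and 11.3 CPM in culture against 758 and 758 CPM (mean difference -4.69 ± 0.62 log2 units (SE), limma adjusted p = 0.00726). As a core gene it was picked on this same contrast, so the p-value is no separate support. C1s1, a protease of the C1 complex, had 0.763, 23.6, 7.29 and 1.68 CPM in culture against 166 and 193 CPM. C4b was the member with overlap, at 0.195, 249.9, 1042 and 519.9 CPM in culture against 796 and 289 CPM, highest in tdT-positive spheroid cells and near 0 in adipose neurospheres. The tdT-negative library had 2489 CPM of Serping1 and 454 CPM of C1s1, above both primary libraries.

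Immediate early genes, which cells transcribe within minutes of a stimulus, were lower without overlap in 11 of 24 cases (12 under TMM) and higher in 2 (1 under TMM), and 2 fell, with a median of -1.76. Of all genes 14.9% were lower without overlap (20.9% under TMM), 29.4% were higher (19.4% under TMM) and 7.94% fell. Fos, a partner in the AP-1 factor, had 133, 167, 1953 and 673 CPM in culture against 8868 and 3221 CPM. Zfp36, which shortens the life of cytokine messages, had 50.2, 39.8, 306 and 75.5 CPM in culture against 2387 and 842 CPM. Among cultures the tdT-positive spheroid cells were highest for both, and they were also the culture whose cells the labels describe as sorted just before RNA isolation, as were both primary libraries. The list's median log2 ratio to the primary library of the same tissue was 0.26 in tdT-positive spheroid cells, -1.76 in M1, -1.33 in M2 and -2.998 in adipose neurospheres. With 1 library each, sorting and the other differences cannot be told apart.

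Of 13 heat shock genes 5 were lower and 1 higher without overlap, and 4 fell. Hspa1a and Hspa1b, near-identical genes of the inducible HSP70, had 3.93, 10.2, 26.3 and 6.42 CPM in culture against 3654 and 409 CPM for Hspa1a and 9.17, 30.5, 18.3 and 6.20 CPM in culture against 4236 and 485 CPM for Hspa1b. Both primary values were above all cultures, and the adipose one was far above the bowel one. Of 8 glucocorticoid response genes 2 were lower and 0 higher, with Tsc22d3, known as GILZ, at 110.0, 118, 84.3 and 92.6 CPM in culture against 527 and 432 CPM. Of 17 interferon response genes 4 were lower and 0 higher, and 1 fell. Beside these counts, 14.9% of all genes were lower without overlap (20.9% under TMM), 29.4% were higher (19.4% under TMM) and 7.94% fell. The shares of lower glucocorticoid and interferon genes were near that of all genes under TMM, where the counts of both lists were unchanged.

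Core genes did not shift to the same extent in each culture. Among the 762 higher genes, the median log2 ratio to the primary library of the same tissue was 1.71 in adipose neurospheres, 2.168 in M1 neurospheres, 2.06 in tdT-positive spheroid cells and 2.08 in M2 neurospheres. Adipose neurospheres were the lowest culture for 346 of these genes (45.4%), and M1 neurospheres the highest for 281 (36.9%). Among the 1141 lower genes the medians were -4.14, -2.71, -3.43 and -3.58 in the same order. Adipose neurospheres lay below all 3 bowel cultures for 414 of them (36.3%). M1 neurospheres were highest for 642 (56.3%), where a tie was counted for the first culture in the printed order. Over all genes examined, adipose neurospheres lay below all 3 bowel cultures in 36.9% of cases. Between M2 neurospheres and tdT-positive spheroid cells, which differ by 10 days of purified culture, the median difference of higher core genes (M2 minus tdT-positive) was -0.03 log2 units, with 16 higher core genes (2.10%) at least 2-fold above and 45 (5.91%) at least 2-fold below. Of all genes 7.91% and 7.34% differed that much.

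The range over the 4 cultures had a median of 0.85 log2 units for higher core genes and 1.15 for lower ones, against 0.98 for all genes, and a rule that asks for a gap in every library favours narrow ranges. Among higher core genes with at least 10 CPM in every culture, the narrowest ranges were those of Gpr153 with 78.3, 78.9, 81.2 and 82.8 CPM in culture against 36.7 and 28.2 CPM, Tmem263 with 90.1, 89.5, 84.9 and 83.4 CPM in culture against 33.4 and 34.5 CPM and Avl9 with 40.6, 44.5, 43.01 and 41.1 CPM in culture against 15.03 and 13.00 CPM. These 3 genes had nearly the same level in every culture, over 2-fold above the primary cells. The widest such range was that of Spp1, osteopontin, a secreted phosphoprotein of bone and wounds, with 4073, 802, 429.8 and 74.1 CPM in culture against 7.97 and 34.3 CPM. Stc2, the hormone stanniocalcin 2, had 634, 14.9, 90.2 and 57.3 CPM in culture against 1.75 and 1.66 CPM, and Dok4, a docking protein downstream of RET, had 461, 36.5, 510.2 and 315 CPM in culture against 14.3 and 9.52 CPM. At the limit of the core, Lix1l (1.0005), Clock (1.0013) and Foxj2 (1.0015) were just inside and Copg2 (0.9996), Sf3b3 (0.9985) and Dnajc13 (0.9979) just outside in the upward direction, and Slc2a12 (1.0008) was inside and Cyb5a (0.9993) outside in the downward one.

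Each tissue alone gave more genes than the shared core. Relative to bowel primary cells, 2231 genes were at least 2-fold higher and 1993 at least 2-fold lower in all 3 bowel cultures. Relative to adipose primary cells, 2889 were higher and 3430 lower in adipose neurospheres. Both lists held 1105 genes upward, 49.5% of the bowel list and 38.2% of the adipose list, and 1499 downward, 75.2% and 43.7%. Opposite directions were rarer, with 119 genes higher in the bowel cultures and lower in adipose neurospheres and 110 the reverse. The core is smaller than these overlaps because it asks every culture to pass the primary library of the other tissue as well.

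The tdT-negative library gives the level of core genes in cultured cells without a crest history. A gene was counted on the cultured side when its level there was past the midpoint of the gap between the nearest crest libraries. This was so for 582 of 762 higher core genes (76.4%) and 887 of 1141 lower ones (77.7%), and for 58.4% and 75.1% of all genes with no overlap in these directions. Fewer were within or beyond the range of the 4 cultures, 51.2% of the higher and 49.2% of the lower core genes, beside 43.8% and 58.0% of all genes with no overlap. Of the 89 and 590 genes with a separation of at least 2, 64.0% and 81.7% were past the midpoint. Within or beyond the range of the 4 cultures were 39.3% and 47.5% of them. A primary library of tdT-negative cells was not analysed here, so these are levels and not changes of such cells.

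Lists differed in that library, which is 1 library without a replicate. Of the 35 mitosis genes with no overlap, 2 were on the cultured side, of the 17 ribosomal protein genes 1, of the 22 replication genes 4 and of the 4 crest markers 0. The 17 ribosomal protein genes separated in plain CPM, while 4 genes of that list did under TMM. Mki67 had 28.8 CPM, Cdk1 28.00 CPM and Ccnd1 7.62 CPM, near or below the primary values. In contrast 6 of 6 FGF and EGF feedback genes, 6 of 6 fatty acid synthesis genes, 7 of 9 cholesterol genes and 5 of 5 clock genes were on the cultured side, with 40.5 CPM of Etv4, 62.5 CPM of Dusp4 and 242 CPM of Fasn. Hmga2 had 98.9 CPM there. Downward, 9 of 9 MHC class II, 17 of 17 macrophage and 10 of 12 endothelial genes were on the cultured side, but 2 of 9 complement and 1 of 9 fibroblast genes.

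**Figure D5:**
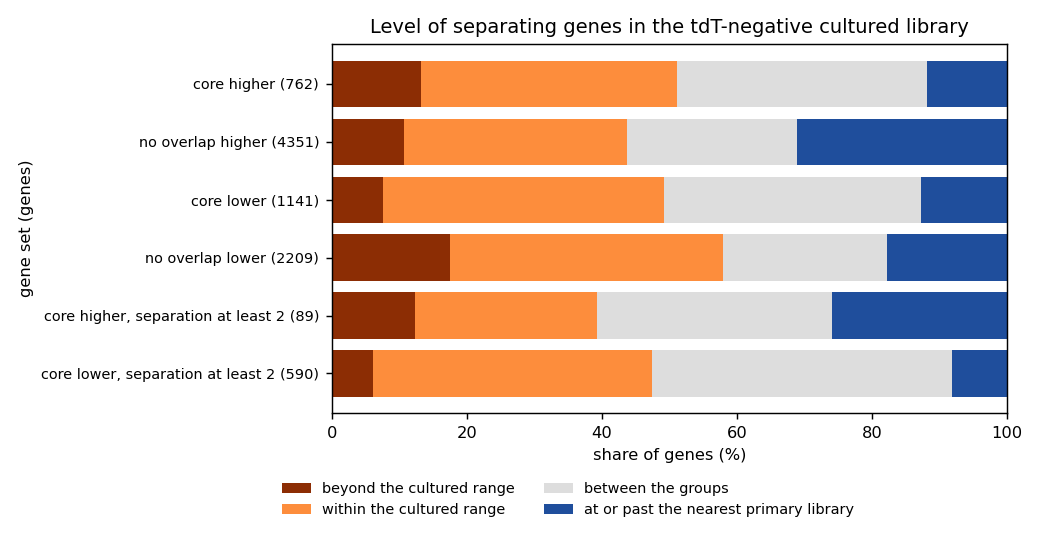
Share of genes, in percent, by where the level in the tdT-negative library falls relative to the crest libraries, for 6 sets of separating genes: beyond the cultured range, within it, between the groups, or at or past the nearest primary library. Of the higher core genes 11.8% were at or past the nearest primary library, against 31.0% of all genes higher with no overlap.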

How the data were processed

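Gene expression was measured by RNA sequencing (SMART-Seq v4 cDNA, Nextera XT libraries). The authors deposited CPM values per Entrez gene. Per the submitters' processing notes, bcl2fastq 2.17, HISAT, featureCounts and the mm10 genome were used; the sources used here do not give settings, annotation or strand use, so antisense and overlapping genes and near-identical copies are uncertain. The deposited CPM were turned back into reads (100% of values whole within 0.05 read, 51885106 to 65301500 reads per library). Reads of amplified cDNA carry no molecular identifiers and are not independent, and the floor for 0 reads (3 reads, 0.0459 to 0.0578 CPM) covers counting error only.

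Symbols came from a RefSeq table (GRCm38.p6), which matched 25275 of 27179 identifiers, and promoter sequences from RefSeq for 11403 of the 14794 genes examined. Genes needed 1 CPM in 2 of 6 tdTomato-positive libraries. Separation and limma 3.58.1 (trend, cultured minus primary, Benjamini-Hochberg) used log2(CPM + 0.5), so differences of low genes are understated. The limma step was tested on simulated data. Alternatives were pseudocounts of 0.1 and 1 CPM, no minimum or 5 CPM, TMM and DESeq2 size factors, acinar genes left out, each library left out, bowel libraries only, a tissue term, separations above 0 and of at least 2, and edgeR 4.0.16 and DESeq2 1.42.0 on recovered reads (R 4.3.3, Python 3.11.15). Groups came from the labels. Genes named were the 15 widest separations each way with at least 10 CPM in every library of the higher side, members of 46 gene and marker lists, and the 3 widest and 3 narrowest ranges over cultures, leaving out unnamed gene models, Xist and Y-linked genes. The members and lists were chosen with earlier results of these data known. Some genes that this rule names are not reported.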

Additional observations from a re-analysis of the deposited data

Results flagged for a closer look

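In 8 of 87 genes examined over the 4 cultured libraries, 1 culture stood far from the other cultures (its gap to the nearest culture, as a share of the whole range, was above Dixon's 95% critical value for 4 samples). Chance flags about 1 in 20 groups. The tdT-positive spheroid cells stood high for Pcdhgc5 (50.6 CPM), which shares exons with its neighbours, and for Cfd, complement factor D (0.0619 CPM, under 5 reads). Bowel M1 neurospheres stood high for 5 genes. They had 0.964 CPM of the mast cell protease Cma1, 6.01 CPM of the smooth muscle myosin Myh11, 3.39 CPM of the keratin Krt19, 1.52 CPM of Igf2 and 0.0193 CPM of Hbb-bs, the last within the floor for 0 reads. Adipose neurospheres stood low for Apoe, a lipid carrier of glia and macrophages, with 18.96 CPM, while the bowel cultures had 1041, 627 and 780.1 CPM.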

How the results depend on the processing

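No paired analysis was possible because the labels give no replicate numbers; with tissue as a term in limma, 1354 genes were higher and 1233 lower. The 762 higher core genes became 446 with TMM, 451 with DESeq2 size factors, 2231 with bowel libraries only, 4351 at a separation above 0 and 89 at one of at least 2; the 1141 lower ones became 1993, 2209 and 590 with the last 3 settings. Leaving out a library gave 866 to 1636 higher (1636 without adipose primary, 1323 without bowel primary, 1225 without adipose neurospheres) and 1173 to 1850 lower (1850 without adipose primary). Fewer libraries loosen a rule that every library must meet. limma's 1533 higher calls became 792 with TMM, 803 with DESeq2 size factors, 763 with bowel only and 490 with edgeR, and 345 to 1420 without 1 library (345 without bowel primary, 569 without M2, 581 without adipose primary, 596 without tdT-positive spheroid cells, 852 without M1). Its 1174 lower calls became 1912 with DESeq2 and 559 to 1098 without 1 library (559 without M2, 663 without tdT-positive spheroid cells, 768 without bowel primary). Apart from fewer libraries, the cause was not tested. Depth was similar in all libraries and limits only genes near the floor.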
